A study of Mus musculus with 17 samples.

Results

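Complement is a set of blood proteins and receptors that mark cells and debris for removal. In the mouse kidney, the RNA of 9 of its genes was followed here: C3, Cfb, C4b, C2, C1ra, C1qa, C1qb, C1qc and Serping1. They were taken by their symbols from the deposited gene table, where each symbol had 1 entry, and make up 9 of the 22558 genes used. Whole-kidney RNA was sequenced from 17 male mice, 1 library per mouse. The Ctrl group held 5 C57BL/6 mice of wild-type genotype, the Case group 6 db/db mice (BKS.Cg-Dock7m +/+ Leprdb/J, which lack a working leptin receptor and become obese and diabetic), and the Dapa group 6 db/db mice treated with 1.0 mg/kg of dapagliflozin daily, a drug that blocks glucose reabsorption through SGLT2. Treatment began at 8 weeks of age and lasted 6 weeks, and the Ctrl and Case mice received saline by the same oral route. The db/db mice also differ from the Ctrl mice in strain background and carry the Dock7m allele, so the leptin receptor mutation and the strain cannot be told apart. Mice are named by group and number, Ctrl 1 to 5, Case 1 to 6 and Dapa 7 to 12.

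The classical pathway starts when C1q, built from the chains of C1qa, C1qb and C1qc, binds a target and activates the proteases C1r and C1s. These cleave C4 and C2, whose fragments form an enzyme that cleaves C3, the central protein of the system. The alternative pathway uses factor B, from Cfb, in a second enzyme that cleaves C3 and amplifies the reaction, and the inhibitor encoded by Serping1 shuts off C1r and C1s. Most circulating complement is made in the liver, but kidney tubule cells are known to make C3 and other components, in particular during inflammation, while C1q is a well-known product of tissue macrophages.

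The values are read counts and FPKM, fragments per kilobase of transcript scaled to the size of the library. The total count was 13039535 to 17779635 per mouse, and the lowest count of any member in any mouse was 53, for C1qb in Dapa 11, so each member was measured in each mouse. In 7 libraries (Ctrl 1, 3 and 4, Case 1, and Dapa 10, 11 and 12) the FPKM and counts of 3 genes that were left out did not match each other, and these libraries were treated as a possible batch. Differences were tested with edgeR's quasi-likelihood test on counts, and q is its Benjamini-Hochberg adjusted p over all genes tested, called under 0.05. Log2 fold changes are from that fit, given with their standard error (SE), and folds of mean FPKM are given beside them. In whole-kidney RNA, fewer cells of a type and less RNA per cell cannot be told apart.

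The C1q chains lie together on the minus strand of chromosome 4 within 18675 bases: C1qb at chr4:136880129-136886187, C1qc at chr4:136889804-136893065 and C1qa at chr4:136895917-136898803 (mm10, GRCm38). C4b (chr17:34728380-34743882), Cfb (chr17:34856374-34862518) and C2 (chr17:34862604-34898265) share a stretch of chromosome 17, the major histocompatibility region, also on the minus strand, and only 85 bases separate Cfb from C2. C3 lies elsewhere on the same chromosome (chr17:57203970-57228136), C1ra on chromosome 6 (chr6:124512405-124523443) and Serping1 on chromosome 2 (chr2:84765387-84775444). Some members share sequence with other genes, which bears on how reads could be assigned to them. Of the 50-base stretches of the C4b transcripts, 34.6% also occur in C4a, its neighbouring copy. The figure was 50.8% for C1ra, almost all of it with its copy C1rb, and 73.0% for Cfb and 38.7% for C2, both with Gm20547, an annotated gene that overlaps them on the same strand. No stretch of C3, C1qa, C1qb, C1qc or Serping1 occurred in another gene.

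The contrast that runs through the results is between C3 and the C1q chains, and the 250 bases before the RefSeq start sites of C3 and of C1qb are shown for that reason (RefSeq, GRCm38.p6, both on the minus strand, C3 at chr17:57228137-57228386 and C1qb at chr4:136886201-136886450). Capitals mark matches, on either strand, to any of 3 motif letter patterns: TTGCNNAA for C/EBP factors, GAAANNGAA for interferon response elements, and GAGGAA for PU.1, a factor of the myeloid lineage. The patterns did not overlap within these windows.
C3: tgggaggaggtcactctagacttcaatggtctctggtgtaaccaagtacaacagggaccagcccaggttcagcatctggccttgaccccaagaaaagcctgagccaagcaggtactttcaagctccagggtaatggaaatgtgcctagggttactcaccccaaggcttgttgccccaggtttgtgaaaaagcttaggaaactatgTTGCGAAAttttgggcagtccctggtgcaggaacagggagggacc
C1qb: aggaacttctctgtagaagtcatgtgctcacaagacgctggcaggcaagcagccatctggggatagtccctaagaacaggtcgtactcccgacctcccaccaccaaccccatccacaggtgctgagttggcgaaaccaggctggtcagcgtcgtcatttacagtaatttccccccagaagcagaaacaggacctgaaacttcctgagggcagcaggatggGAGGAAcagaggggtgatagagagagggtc
The C3 window held 1 match, to the C/EBP pattern, at positions −45 to −38 from the start, and that pattern was present in 9.56% of 32851 promoter windows of this length. The C1qb window held 1 match to the PU.1 pattern, at positions −30 to −25, a pattern found in 23.3% of windows. In the corresponding windows of C1qc and C1ra, there was 1 PU.1 match for C1qc, on the other strand at −193 to −188, and none of the 3 patterns for C1ra. Both windows (C1qc at chr4:136892915-136893164, C1ra at chr6:124512371-124512620) reach into the genes as positioned above, because the RefSeq starts lie further inside. They are thus not wholly upstream of these genes. The interferon response pattern (7.13% of windows) was in none of the 4 windows. A match of letters is a description and not a binding site.

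In the Ctrl kidney, Cfb had by far the highest level of the 9 genes per transcript length, 57.5 ± 1.67 FPKM (SD, n = 5). Its values of 55.4 to 60.0 lay above every value of the other 8. Next came C1qa (7.49 ± 1.89 FPKM), Serping1 (6.78 ± 2.83), C1qb (6.75 ± 1.69) and C3 (6.62 ± 2.05), whose ranges overlapped each other. C2 followed at 4.75 ± 0.823 FPKM, overlapping C3 but not C1qc. The lowest were C1qc (2.71 ± 0.593), C1ra (2.39 ± 0.391) and C4b (2.26 ± 0.426), again with overlapping ranges. In the Case group the order opened with C3 (70.6 ± 87.9 FPKM, n = 6), Cfb (56.0 ± 9.58) and C4b (30.4 ± 25.4). C3 exceeded Cfb in only 2 of the 6 Case mice, Case 1 and Case 3. Its Case median of 32.1 FPKM was below that of Cfb, 55.8. In the Dapa group Cfb (50.6 ± 12.7) was above C3 (29.1 ± 14.2) in each of the 6 mice, and C3 was above Serping1 (10.5 ± 3.23), the next gene, without overlap.

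**Figure D1:**
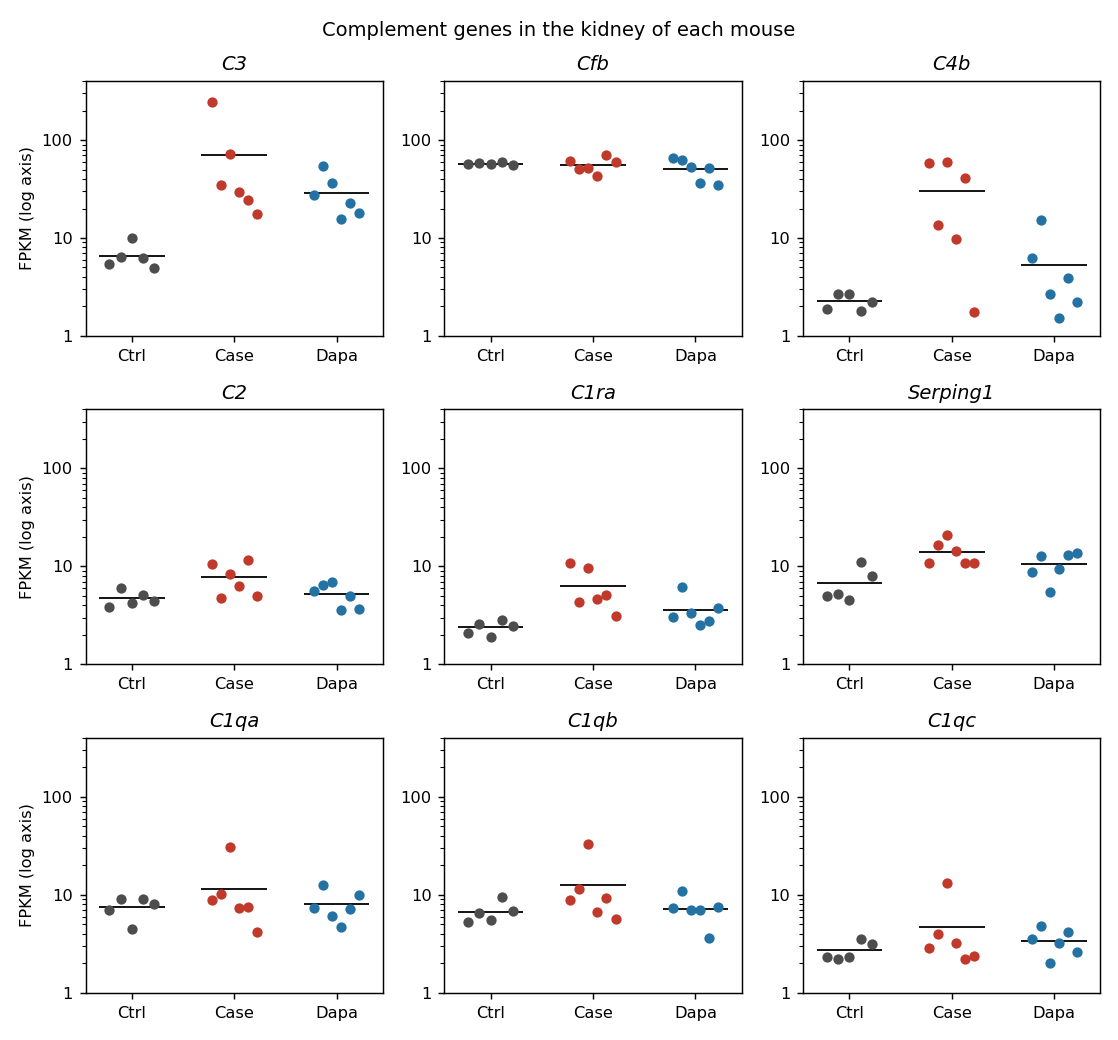
FPKM of the 9 complement genes in each mouse, on a log axis shared by all panels, with points for single mice and a line for the group mean. C3 lies above all Ctrl values in all 12 db/db mice, Cfb runs from 34.8 to 70.2 FPKM with overlapping groups, C4b spreads from 1.74 to 59.6 FPKM within the Case group, and 1 Case mouse stands above the rest in all 3 C1q panels.

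The first comparison, Case against Ctrl, asks what differs in the diabetic kidney without drug. Of the 9 genes, 4 were higher in Case (C3, C4b, C1ra and Serping1), none was lower, and C2, Cfb and the 3 C1q chains did not pass the test. Of all 14582 genes tested, 6.09% were called higher and 6.91% lower. All 4 also had a fold of mean FPKM above 2, and 2.33% of all genes tested met both conditions. C3 and C1ra did not overlap between the groups in that direction, which held for 4.97% of all genes. The median log2 fold change was 0.79 over the 9 genes and 0.03 over all genes tested. The count was 4 without Case 1 and Case 3, which stand apart below. It was 1 when only the 10 libraries without the FPKM mismatch were compared, 2 Ctrl mice against 5 Case mice, where C3 alone was called. The share of counts in mitochondrial genes was 17.9% to 20.4% in Ctrl, 19.8% to 27.3% in Case and 19.7% to 27.6% in Dapa. It was 27.3% in Case 6, the Case mouse with the lowest C3, C4b and C1ra, and 25.9% and 27.6% in Dapa 10 and Dapa 12, the mice with the lowest Cfb. Its part in these values was not tested.

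C3, the hub on which the pathways converge, was 5.39, 6.40, 10.1, 6.29 and 4.90 FPKM in Ctrl 1 to 5. In the Case mice it ran from 17.5 (Case 6) through a median of 32.1 to 246 (Case 1). The groups did not overlap, and even the lowest Case mouse exceeded the highest Ctrl mouse. The log2 fold change was 3.32 (SE 0.66, q = 0.00774), and mean FPKM differed 10.7-fold. Case 1 weighed heavily on that size: without it the log2 fold change was 2.30, and without Case 1 and Case 3 it was 1.92 (q = 0.000971). The highest Ctrl value was in Ctrl 3, a library in which markers of fat cells also stood out. Adipoq, the fat cell hormone adiponectin, was 9.83 FPKM there and 0 in the other Ctrl mice and in all 6 Case mice, and the part of fat tissue in the C3 value of Ctrl 3 was not tested.

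Cfb, the protease of the alternative pathway, was 57.0, 57.9, 57.1, 60.0 and 55.4 FPKM in Ctrl 1 to 5. The Case mice ranged from 42.8 to 70.2 with a median of 55.8, on both sides of the Ctrl values. Its log2 fold change of −0.11 had a 95% interval of −0.38 to 0.15 (q = 0.585), so a rise of the size of that in C3 lay outside the interval. The C3 to Cfb ratio of FPKM went from 0.0886 to 0.177 in Ctrl to 0.294 to 4.03 in Case. How reads of Cfb were divided from those of the overlapping Gm20547 is not given in the sources used here. Gm20547 was itself 13.2 to 37.1 FPKM in Ctrl and 7.82 to 51.1 in Case (log2 fold change −0.19, SE 0.37, q = 0.774).

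C4b encodes C4, the protein that C1s cleaves. It was 1.89, 2.67, 2.70, 1.79 and 2.25 FPKM in Ctrl 1 to 5, and 57.6, 13.5, 59.6, 9.66, 40.5 and 1.74 in Case 1 to 6. Case 1, 3 and 5 were very high, Case 2 and 4 intermediate, and Case 6 lay below the lowest Ctrl mouse, so the groups overlapped through that mouse alone. Its log2 fold change was 3.64 (SE 0.71, q = 0.00671), the largest among the 9 genes in this comparison, with a 13.5-fold difference in mean FPKM. Its copy C4a was far lower, 0.391 to 1.41 FPKM in Ctrl and 0.210 to 2.00 in Case, and its log2 fold change was 0.18 (SE 0.52, q = 0.852). In the Case group C4a was also highest in Case 1, 3 and 5, and reads of the shared sequence could have been given to either gene.

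C2, the protease that joins C4 in the classical enzyme, was 3.88, 5.98, 4.28, 5.11 and 4.49 FPKM in Ctrl 1 to 5 and had a median of 7.34 in Case, from 4.74 (Case 2) to 11.6 (Case 5). The same 3 Case mice with very high C4b, Case 1, 3 and 5, had the highest C2, at 10.6, 8.31 and 11.6 FPKM, and the other 3 overlapped the Ctrl range or lay just above it. For C2 the log2 fold change was 0.63 (SE 0.22) with q = 0.0835, which did not pass. DESeq2 called C2 higher, as did the fit without Case 2.

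C1ra, which encodes the protease C1r, was 2.09, 2.62, 1.90, 2.86 and 2.47 FPKM in Ctrl 1 to 5 and 3.15 (Case 6) to 10.8 (Case 1) in Case, with a median of 4.87. All Case mice were above all Ctrl mice, and Case 1 and Case 3 (9.73) were well above the rest. The log2 fold change was 1.31 (SE 0.29, q = 0.0123), and 0.78 (q = 0.0118) without those 2 mice. The copy C1rb stayed between 0 and 0.781 FPKM in all 17 mice. C1s1, the partner protease of C1r, was called higher as well (log2 fold change 0.82, SE 0.20, q = 0.0210), without overlap between the groups, but not without Case 1 and Case 3 (q = 0.0544), without Ctrl 3, with a term for the mismatched libraries, or in the libraries without the mismatch.

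Serping1, the C1 inhibitor, was 5.00, 5.21, 4.50, 11.2 and 7.98 FPKM in Ctrl 1 to 5 and 10.7 to 20.9 (Case 3) in Case, with a median of 12.6. Only Ctrl 4 reached into the Case range. For Serping1 the log2 fold change was 0.97 (SE 0.24, q = 0.0195). This call was the least stable of the 4. It was lost without Ctrl 1, Ctrl 2 or Ctrl 3, and with a term for the mismatched libraries.

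The chains of C1q had much the same level in Case as in Ctrl, apart from Case 3. C1qa was 6.99, 9.03, 4.47, 8.99 and 7.99 FPKM in Ctrl 1 to 5, and 4.22 to 10.2 in 5 Case mice against 31.0 in Case 3. C1qb was 5.27, 6.61, 5.53, 9.52 and 6.82 in Ctrl 1 to 5, and 5.74 to 11.6 in 5 Case mice against 32.9 in Case 3. C1qc was 2.35, 2.21, 2.33, 3.55 and 3.13 in Ctrl 1 to 5, and 2.21 to 4.02 in 5 Case mice against 13.3 in Case 3. None of the 3 passed the test, with log2 fold changes of 0.51 (95% interval −0.36 to 1.38, q = 0.432) for C1qa, 0.79 (−0.04 to 1.61, q = 0.192) for C1qb and 0.68 (−0.22 to 1.57, q = 0.302) for C1qc. Without Case 3 they were −0.05, 0.25 and 0.04. The intervals still include a rise of more than 2-fold.

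**Figure D2:**
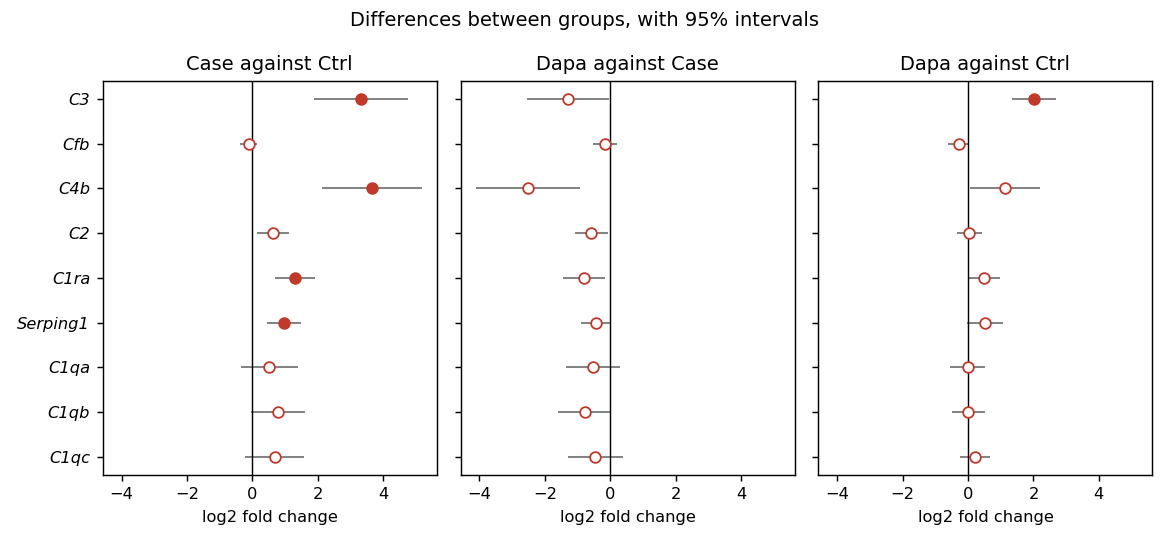
Log2 fold change of the 9 genes in the 3 comparisons, with 95% intervals from edgeR; filled points have q under 0.05. C3, C4b, C1ra and Serping1 are filled in Case against Ctrl, no gene is filled in Dapa against Case although all 9 points lie below 0, and C3 alone is filled in Dapa against Ctrl.

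The next comparison, Dapa against Case, asks what the drug changes in db/db kidney. None of the 9 genes was called by edgeR's quasi-likelihood test, nor was any of the 14573 genes tested (0.0%), where the smallest q was 0.173. At an unadjusted p under 0.05, 4 of the 9 were lower in Dapa (C4b, C1ra, C2 and C3), against 6.66% of all genes tested in that direction. All 9 point estimates were below 0, with a median of −0.58 against −0.01 over all genes, and the 2 groups overlapped for each gene. DESeq2 and limma called none of the 9, while edgeR's exact test called C4b.

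C4b had the largest estimate. It was 6.21, 15.4, 2.66, 1.53, 3.87 and 2.20 FPKM in Dapa 7 to 12, so that none of these mice reached Case 1, 3 or 5. Dapa 8 alone exceeded the intermediate Case mice. The log2 fold change was −2.52 (SE 0.74, unadjusted p = 0.00440, q = 0.232), and by the exact test of edgeR q was 0.0495. Without Case 1 and Case 3 it was −1.65, and without Dapa 8 it was −3.20. For C1ra, Dapa mice ranged from 2.51 to 6.23 FPKM with a median of 3.18 (log2 fold change −0.81, SE 0.30, q = 0.287, and −0.30 without Case 1 and Case 3). For C2 they ranged from 3.63 to 6.91 with a median of 5.33 (−0.58, SE 0.24, q = 0.339).

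C3 was 27.8, 53.9, 36.1, 15.7, 23.0 and 18.0 FPKM in Dapa 7 to 12. Dapa 10 lay below the lowest Case mouse, at 17.5, and the other 5 lay inside the Case range. The medians were 25.4 FPKM in Dapa and 32.1 in Case. The log2 fold change of −1.29 (SE 0.59, q = 0.376) rested on Case 1: it was −0.28 without Case 1, −1.30 without Case 3 and 0.10 without both. The estimates for Serping1 (−0.43, q = 0.395) and Cfb (−0.17, q = 0.700) were smaller. For C1qa, C1qb and C1qc the log2 fold changes were −0.52, −0.78 and −0.46, and without Case 3 they were 0.04, −0.25 and 0.17.

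Dapa against Ctrl places the treated kidney beside the wild-type one, and it shares the Ctrl mice with the first comparison and the Dapa mice with the second. C3 was the only one of the 9 genes called, higher in Dapa, where 14.2% of 14647 genes were called higher and 14.9% lower. Its fold was above 2, and 5.05% of all genes tested were called higher with such a fold. The groups did not overlap, which held for 9.79% of all genes in that direction. The lowest Dapa value of C3, 15.7 FPKM in Dapa 10, exceeded the highest Ctrl value of 10.1. The log2 fold change was 2.03 (SE 0.31, q = 0.000858), a 4.39-fold difference in mean FPKM, and C3 was called in all 22 alternatives run for it, including the libraries without the mismatch (2.71, q = 0.0153).

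The other 8 did not pass. C4b had a log2 fold change of 1.12 (SE 0.49, q = 0.104), with 3 of the 6 Dapa mice above the Ctrl range and 1 below it, and it was 0.44 without Dapa 8. C1ra (0.49, q = 0.110) and Serping1 (0.53, q = 0.137) lay in the same direction. Serping1 was called without Ctrl 4 or without Dapa 9. C2 was at 0.04, C1qa at −0.01, C1qb at 0.00 and C1qc at 0.21, with 95% intervals that reached no further than 0.67 above 0 and 0.54 below it. Cfb was at −0.29 (q = 0.163), with its lowest values, 34.8 and 36.7 FPKM, in Dapa 12 and Dapa 10. Gm20547, which overlaps Cfb, was called lower (−1.92, SE 0.53, q = 0.0175), and its 0.605 to 14.1 FPKM in Dapa compare with 13.2 to 37.1 in Ctrl.

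The C3 to C1qa ratio of FPKM in each mouse sets a gene that tubule cells are known to make against one known from macrophages. The ratio uses the same mice as the tests above, in which C3 was called in both comparisons with Ctrl and C1qa in neither. Its tests therefore restate those results, and the ratio does not tell which cells the RNA came from. In Ctrl it had a median of 0.709, from 0.614 to 2.26. In Case the median was 3.70, from 2.30 to 27.8, and in Dapa it was 3.55, from 1.82 to 5.91. All Case mice lay above all Ctrl mice. The mean log2 ratio was 2.44 higher in Case than in Ctrl (exact two-sided permutation test, p = 0.00433, q = 0.0130 over the 3 comparisons), and this p is the smallest that 6 against 5 mice can give. It was 1.99 higher in Dapa than in Ctrl (exact permutation p = 0.00866, q = 0.0130), where Ctrl 3 overlapped the Dapa mice. Between Dapa and Case it differed by −0.45 (exact permutation p = 0.571, q = 0.571). Within the C1q set, the ratio of C1qa to C1qb was 0.808 to 1.37 in Ctrl, 0.735 to 1.09 in Case and 0.684 to 1.99 in Dapa. In Case 3, where all chains were high, C3 to C1qa was 2.30, the lowest of the Case group.

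Markers of macrophages and the C1q chains both stood out in Case 3. Csf1r, the receptor for the growth factor that macrophages depend on, was 10.1 FPKM in Case 3 against 2.82 to 4.63 in the other Case mice and 3.51 to 5.91 in Ctrl. Adgre1, which encodes a surface receptor used as the classical marker of mouse macrophages, was 3.23 FPKM there and at most 1.25 in all other mice. Summed over the 12 macrophage markers, FPKM was 22.1 to 36.0 in Ctrl, 22.4 to 154 in Case and 21.6 to 49.2 in Dapa. The sum was highest in Case 3 within Case and in Dapa 8 within Dapa. Dapa 8 also had the highest C1qa (12.7 FPKM), C1qb (10.85) and C1qc (4.77) of the Dapa group, as well as its highest C3. None of the 12 markers was called in Case against Ctrl and none of 10 tested in Dapa against Case. The part of macrophage number in the C1q values of Case 3 was not tested.

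Genes induced by interferon were high in the mice with the highest C4b. Irf1, a transcription factor that interferon induces, was 5.51, 4.18, 17.3, 2.62, 10.3 and 1.45 FPKM in Case 1 to 6, against 1.01 to 2.41 in Ctrl and 1.44 to 2.33 in Dapa. The mice with the highest Irf1, Case 1, 3 and 5, were those with the highest C4b and C2, and Case 6 had the lowest Case value of Irf1 and of C4b. Gbp2, an interferon-induced GTPase, was 135, 176 and 45.5 FPKM in Case 1, 3 and 5 and at most 7.20 in any other mouse. In Case 4, with 9.66 FPKM of C4b, Irf1 (2.62) was above every Ctrl mouse and Gbp2 (2.16) below every Ctrl mouse. In Dapa 8, with 15.4 FPKM of C4b, Gbp2 (5.18) was above every Ctrl mouse and Irf1 (2.13) inside the Ctrl range. Case 3, the mouse with the highest C1q, was also the highest in Irf1, Gbp2 and C4b. Of 10 genes tested among 11 of interferon signalling, 6 were called higher in Case against Ctrl, among them Irf1 (log2 fold change 2.00, SE 0.53, q = 0.0277) and Gbp2 (4.38, SE 1.13, q = 0.0245). In Dapa against Ctrl, 2 of the 10 were called higher, among them Cxcl10, and 1 was called lower (Irf9). The summed FPKM of the 11 was 16.4 to 799 in Case, 19.2 to 23.6 in Ctrl and 19.4 to 30.1 in Dapa.

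**Figure D3:**
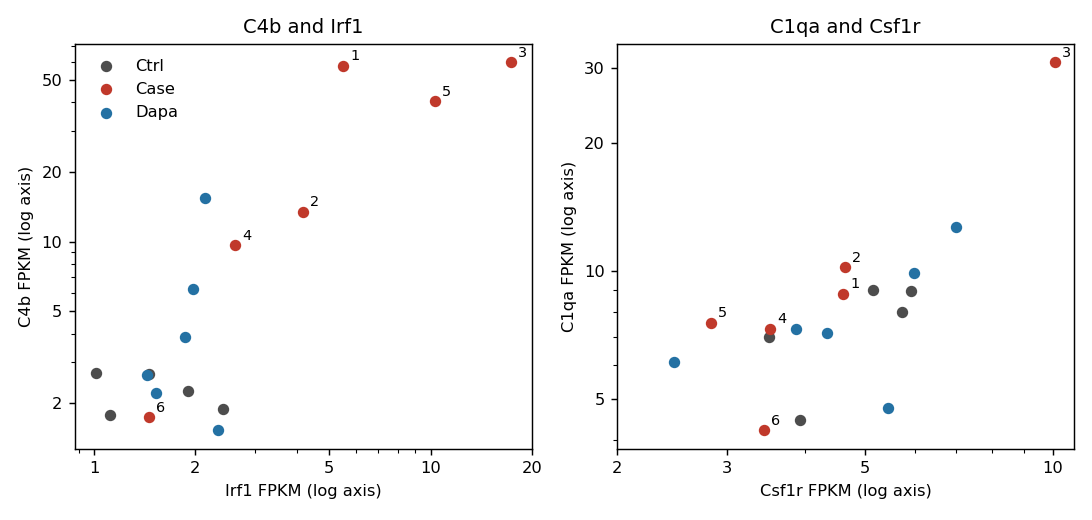
FPKM of C4b against Irf1 and of C1qa against Csf1r in each mouse, on log axes, with the Case mice numbered. Case 1, 3 and 5 lie at the upper right of the C4b panel, with Irf1 from 5.51 to 17.3 FPKM, and Case 3 alone lies at the upper right of the C1qa panel, at 10.1 FPKM of Csf1r and 31.0 of C1qa.

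Markers of the tubule itself differed as well. Lrp2, the endocytic receptor megalin of the proximal tubule, was 164 ± 25.8 FPKM in Ctrl (n = 5), 87.5 ± 18.9 in Case (n = 6) and 74.3 ± 20.3 in Dapa (n = 6), and was called lower in both db/db groups against Ctrl. Of 10 proximal tubule markers, 5 were called lower in Case and 8 in Dapa against Ctrl, and none higher. Of 8 markers of the distal nephron, 4 were called higher in Case and 6 in Dapa against Ctrl, and none lower. Their summed FPKM was 649 to 1759 in Ctrl, 1192 to 3042 in Case and 1581 to 2399 in Dapa. Of 8 genes of tubular injury, 4 were called higher in each of the 2 comparisons with Ctrl (Lcn2, Cd24a, Krt18 and Spp1). Summed over the 8, FPKM was 193 to 286 in Ctrl, 402 to 1663 in Case and 394 to 799 in Dapa. The sum was highest in Case 1 and in Dapa 8 within their groups, as was C3. Spp1 alone was 1427 FPKM in Case 1 and 613 in Dapa 8, most of the sum. Within Case, Lcn2 (15.4 FPKM) and Havcr1 (2.09) were instead highest in Case 3, and within Dapa both were highest in Dapa 8. Havcr1 was not called in any comparison. The part of the tubular injury, of the lower proximal tubule markers and of the higher distal nephron markers in the C3 values was not tested.

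Other cells and tissues were checked in the same way. Alb, the liver marker albumin, was 7.18 to 16.6 FPKM in all 17 mice and was not called in any comparison. Of 11 liver genes tested, 2 were called higher in Case against Ctrl (Fga and Apob), 1 was in Dapa against Ctrl (Apob), and none was called lower. Fga, a fibrinogen chain, was highest in Case 1 (180 FPKM), the mouse with the highest C3. Pdgfra, a marker of fibroblasts, was 1.56 ± 0.642 FPKM in Ctrl, 3.00 ± 0.914 in Case and 3.51 ± 1.40 in Dapa, and was called higher in Dapa against Ctrl (q = 0.0173). Neutrophil markers summed to at most 2.63 FPKM in Ctrl, 20.7 in Case, in Case 3, and 9.04 in Dapa, in Dapa 8. Summed B and plasma cell markers were 9.98 to 22.7 FPKM in Ctrl and 4.21 to 16.4 in Case, and reached 76.1 in Dapa 8, the Dapa mouse with the highest C3, C4b and C1ra. Of 4 of these markers tested, 2 were called lower in Case against Ctrl (Igkc and Jchain) and none in the other comparisons. The T and NK cell list summed to at most 5.63 FPKM in any mouse, and 1 of its 3 genes tested in Dapa against Ctrl was called higher (Trac).

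**Figure D4:**
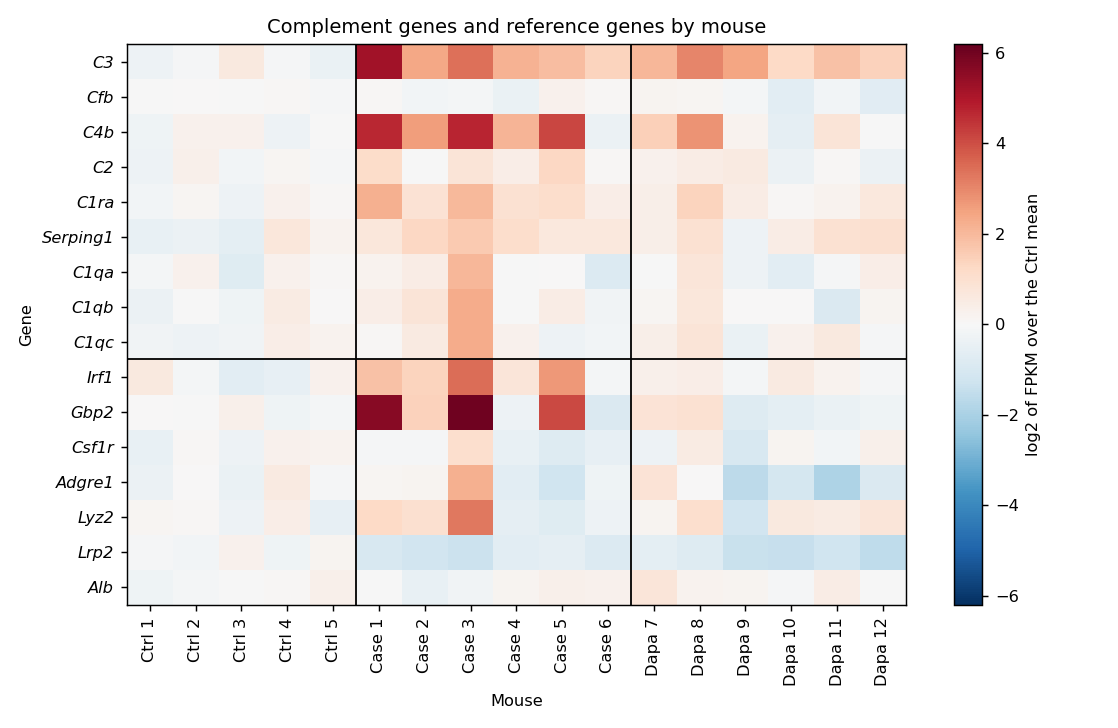
Log2 of FPKM over the Ctrl mean for the 9 complement genes (above the line) and 7 reference genes (below it) in each mouse, where red is above and blue below the Ctrl mean. The C4b, Irf1 and Gbp2 rows have their strongest red in Case 1, 3 and 5, but C4b is red in Case 4 and Dapa 8 as well, the C1q, Csf1r, Adgre1 and Lyz2 rows have theirs in Case 3, and the C3 row is red in all 12 db/db mice.

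Beyond the 9 genes, 47 entries of the complement system were listed by class, and 29 of them passed the filter on low counts in each comparison. In Case against Ctrl, 5 were called higher and 2 lower, where 6.09% of all genes tested were called higher and 6.91% lower, so that the count lower was near that share. Their median log2 fold change was 0.35 against 0.03 over all genes. None was called in Dapa against Case by edgeR, and DESeq2 called 1. In Dapa against Ctrl, 3 were called higher and 2 lower, and neither count was above the share over all genes of 14.2% higher and 14.9% lower.

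Among regulators, Clu rose in both db/db groups. It encodes clusterin, which binds the late complement complex and is induced in injured tubules, and was 13.2 to 19.1 FPKM in Ctrl, 27.5 to 42.4 in Case and 28.2 to 81.1 in Dapa (log2 fold changes 1.13, q = 0.000330, and 1.30, q = 0.00357). Cd46, a membrane cofactor for the inactivation of deposited complement, had a low level of 0.509 to 0.818 FPKM in Ctrl and was higher in Case (0.63, q = 0.0265) and Dapa (1.02, q = 0.00180). Cpn1, a chain of the enzyme that inactivates complement peptides, was called higher in Case (0.40, q = 0.0159), and Susd4, a membrane regulator, in Dapa (1.20, q = 0.0107).

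The late genes went in different directions. C7, a part of the membrane attack complex, was called higher in Case (log2 fold change 1.80, SE 0.43, q = 0.0171), at 0.546 to 1.49 FPKM in Ctrl and 1.17 to 7.40 in Case with the highest value in Case 3. C8a and C8g, chains of C8, were called lower (−1.61, q = 0.0262, and −0.65, q = 0.0284), and C8a was also lower in Dapa against Ctrl (−1.28, q = 0.0399). These levels were low, at most 2.83 FPKM for C8a. The calls of C8a, C8g and Cd46 in Case against Ctrl each depended on several single mice: Ctrl 3 and Ctrl 5 for all 3, Ctrl 2 for C8g and Cd46, Ctrl 4 for C8g, Case 2 for C8a and C8g, and Case 4 and Case 6 for C8a and Cd46. With a term for the mismatched libraries C7 (1.79, q = 0.0560), C8a (−1.62, q = 0.0527) and Cd46 (0.65, q = 0.0653) had q just above the threshold. The C8g call in Case against Ctrl was also lost in 1 fit of all 3 groups (−0.66, q = 0.0996). In Dapa against Ctrl, the call of C8a was lost without Ctrl 1, 2, 3 or 5 and without any of Dapa 9 to 12. Hc, C6, C8b and C9, the other genes of the complex, never exceeded 0.217 FPKM. In Dapa against Ctrl, C4a was called lower (−1.58, SE 0.39, q = 0.0100), at 0.151 to 0.697 FPKM in Dapa.

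Cfd, which encodes factor D, the protease that activates factor B and is made by fat cells, was 52.4 FPKM in Ctrl 3, 4.96 in Dapa 11 and 3.79 in Dapa 7, and at most 0.689 in any other mouse. Adipoq was above 1 FPKM in the same 3 libraries. Of the lectin pathway, 3 of 8 genes were tested and none was called, and no receptor was called among the 8 entries tested in Case against Ctrl and the 7 in the other comparisons.

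**Figure D5:**
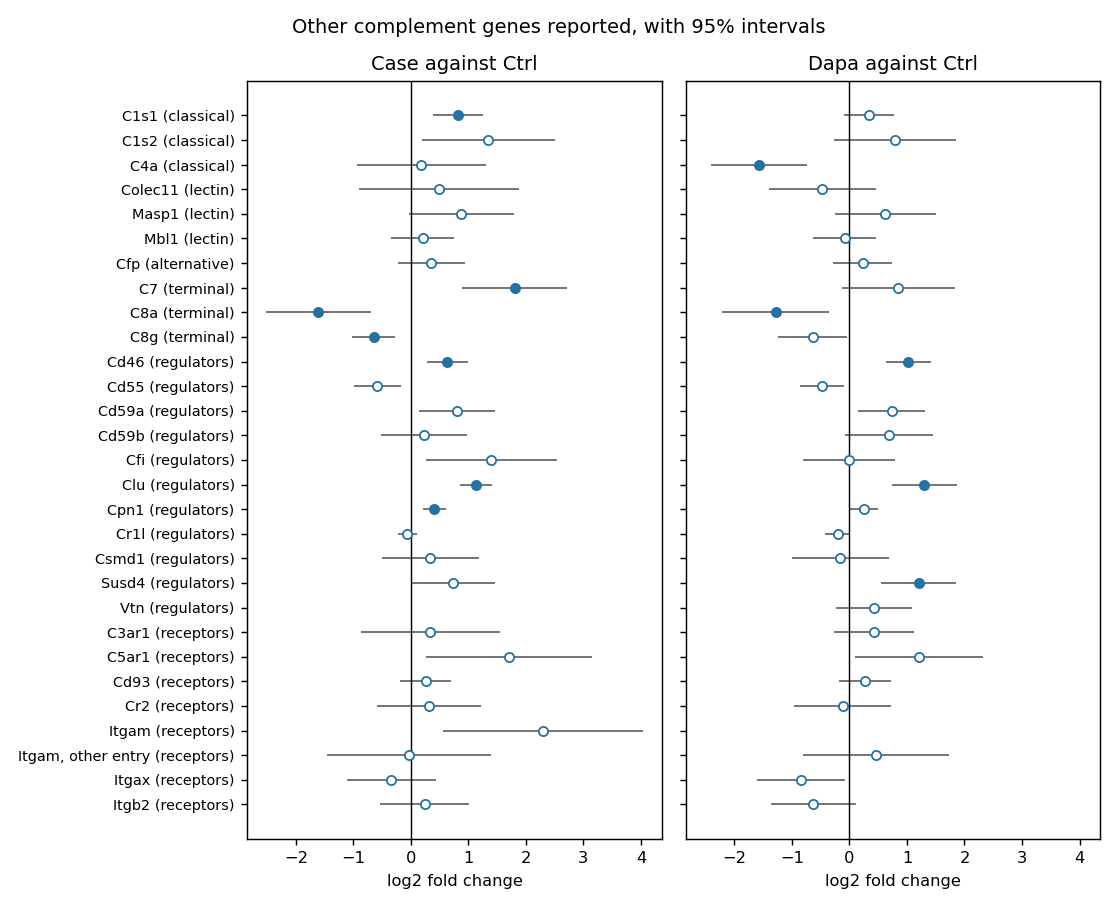
Log2 fold change of the other complement genes that passed the filter and are reported here, by class, in Case against Ctrl and in Dapa against Ctrl, with 95% intervals; filled points have q under 0.05, and Itgam has 2 entries. Clu and Cd46 are filled above 0 and C8a below 0 in both panels, while C4a is filled in Dapa against Ctrl only.

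To place each gene among all others, the 3 non-member genes with a mean of at least 1 FPKM and the highest Spearman correlation with it over the 17 mice were taken. The 17 mice differ by group, so these values describe likeness across groups as well as between mice, and the value over the 12 db/db mice is given beside each. C3 was most like Gm13652 (rho 0.92 over 17 mice, 0.85 over 12), BC021614 (0.91 and 0.78) and Spp1 (0.90 and 0.77), the secreted protein osteopontin of injured tubules. C1ra was most like Spp1 too (0.91 and 0.92), then Ctso (0.89 and 0.87) and Pycard (0.88 and 0.80). C4b was most like H2-DMa (0.89 and 0.94), Lgals3bp (0.84 and 0.89) and H2-DMb2 (0.84 and 0.90), of which H2-DMa and H2-DMb2 load peptides on MHC class II molecules.

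For C1qa the nearest genes were Fcer1g (0.91 and 0.88), Cd52 (0.81 and 0.83) and Coro1a (0.79 and 0.88), all expressed by leukocytes, and Fcer1g is among the 12 macrophage markers used above. C1qb was nearest to Ifi35 (0.87 and 0.83), an interferon-induced gene, Cd74 (0.87 and 0.89) and Eml6 (0.83 and 0.83). C1qc, the chain with the lowest level, was nearest to Ier5 (0.82 and 0.87), Col1a1 (0.77 and 0.83) and Smoc2 (0.75 and 0.76), none of which is a macrophage marker. Serping1 had Emilin1 (0.88 and 0.90), Serpine2 (0.87 and 0.80) and Fam171a2 (0.87 and 0.79) nearest. C2 had Kars (0.85 and 0.94), Svopl (0.81 and 0.81) and Abhd16a (0.79 and 0.87), and Cfb had Yif1a (0.86 and 0.87), Qars (0.86 and 0.90) and Crbn (0.85 and 0.88).

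Within the 9 genes, the closest over the 12 db/db mice were C1ra with C4b (rho 0.87) and C1qa with C1qb (0.87), then C3 with C4b (0.81), C3 with C1ra (0.78), C1qa with C1ra (0.77), C2 with C4b (0.75), C1qa with C4b (0.73), C1qb with C1ra (0.71), and C1qb with C4b and C2 with C3 (0.70 each). C1qc was less close to C1qa (0.50) and C1qb (0.36) than these were to each other. C3 was closer to C1qa and to C1qb (0.59 each) than C1qc was to either, and C3 with C1qc was at 0.31. Cfb was not close to C3 (0.26) or to C4b (0.35).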

How the data were processed

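Whole kidneys of 5 Ctrl, 6 Case and 6 Dapa mice were used, grouped by the sample labels. Reads of oligo(dT)-enriched, stranded libraries were aligned by the authors to mm10 with HISAT2 and counted per gene with Stringtie. The deposited table, made by the authors, gives counts and FPKM for each gene in each mouse. The deposited FPKM followed count, length and library total with deviations of at most 0.00438% for counts above 20 and thus carry no TMM factor. Of 22561 genes, 3 (Sirt1, Tgfb1, Bmp4) with broken entries were left out. No 2 libraries of a group were duplicates (lowest chi-square per gene 15.0).

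The test was the quasi-likelihood test of edgeR 4.0.16 under R 4.3.3, after filterByExpr and TMM, with Benjamini-Hochberg adjustment over all genes, and each comparison was fitted on its own 2 groups. DEGs had q under 0.05 and a fold of mean FPKM above 2. The test was tested on simulated data. Ratios were compared with exact permutation tests in Python 3.11.15 (numpy 2.4.6, scipy 1.17.1, pandas 2.3.3), and figures drawn with matplotlib 3.10.9. Results were recomputed with DESeq2 1.42.0, the exact test of edgeR, median ratio or upper quartile scaling, no filter or a minimum of 10 counts in every sample, 1 fit of all 3 groups, limma 3.58.1 on log2(FPKM + 1) and log2(FPKM + 0.1), the fold threshold, a term for the 7 mismatched libraries, a block for the replicate number, and leaving out each mouse, and for the ratio a pseudocount of 1 FPKM, C1qb or C1qc in place of C1qa, and each mouse left out. The fits without Case 1 and Case 3 and on the libraries without the mismatch were chosen after seeing the data.

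The members and gene lists were chosen with earlier results of these data known. Named genes were all 9 members, the other complement genes with q under 0.05 in any comparison with C4a, C1rb and C1s1, the 3 genes most like each member, and reference markers. Gm20547, Gbp2, Fga, Cfd and the members of lists named with them were chosen with their values in view. Sequences are from RefSeq (GRCm38.p6), which gave promoters for 4 of the 9 members. Gene positions and shared stretches are from GENCODE annotation of GRCm38, whose positions matched the deposited ones. P-values measure the spread between mice. Some genes and sites that meet these rules are not reported here.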

Additional observations from a re-analysis of the deposited data

Results flagged for a closer look

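Of 30 sets of 5 or 6 mice examined (9 genes and the C3 to C1qa ratio in 3 groups), 9 had a mouse whose gap to the nearest other mouse, as a share of the whole range, was above Dixon's 95% critical value. Chance alone flags about 1 in 20, and the genes are not independent of each other. C3 stood apart in Case 1 at 245.8 FPKM (gap 0.764 of the range) and in Ctrl 3 at 10.1 FPKM (0.713). The log2 C3 to C1qa ratio stood apart in the same 2 mice, at 4.80 in Case 1 (0.764) and 1.18 in Ctrl 3 (0.825). All 3 C1q chains stood apart in Case 3, with C1qa at 30.95 FPKM (0.776), C1qb at 32.91 FPKM (0.784) and C1qc at 13.32 FPKM (0.838). In the Dapa group, Dapa 8 stood apart in C4b at 15.39 FPKM (0.662) and in C1ra at 6.23 FPKM (0.672).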

How the results depend on the processing

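The count of members called was 4 in Case against Ctrl. It was 5 with DESeq2, 3 to 5 over the fits without a single mouse (3 without Ctrl 1, Ctrl 2 or Ctrl 3, and 5 without Case 2), 3 with the term for the mismatched libraries, and 1 on the libraries without the mismatch. In Dapa against Case it was 0, but 1 with the edgeR exact test. In Dapa against Ctrl it was 1, and 1 to 2 over the fits without a single mouse (2 without Ctrl 4 or Dapa 9). For the other complement genes the count of 7 in Case against Ctrl became 11 with DESeq2, 3 with the term for the mismatched libraries, 3 with the fold threshold, 1 on the libraries without the mismatch, and 3 to 9 without a single mouse (3 without Ctrl 3). In Dapa against Case it went from 0 to 1 with DESeq2, and in Dapa against Ctrl from 5 to 0 on the libraries without the mismatch and to between 4 and 8 without a single mouse (8 without Ctrl 4).

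C3 was called in every alternative run in both comparisons with Ctrl. The mean log2 C3 to C1qa ratio also passed in every alternative of both, with 1.93 to 2.78 in Case against Ctrl and 1.84 to 2.33 in Dapa against Ctrl without a single mouse. C4a, C1rb and the late genes had few counts, which limits the precision of their values.

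The replicate numbers shared by Ctrl and Case did not pair the mice (correlations of same-numbered mice −0.05, −0.05, 0.00, −0.05 and −0.03), and with the number as a replicate block the members called were 3 and the other complement genes 1.

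Reversed directions concerned estimates that had not passed the test. In Dapa against Case, C3 became 0.10 without Case 1 and 3 and 0.16 on the libraries without the mismatch, Cfb 0.12 on those libraries, and C1qa and C1qc 0.094 and 0.15 without Case 1 and 3. Without a single mouse, C1qa ran from −0.70 to 0.038 and C1qc from −0.60 to 0.17 (above 0 without Case 3), and the mean log2 C3 to C1qa ratio from −0.66 to 0.061 (above 0 without Case 1). In Case against Ctrl, C1qa became −0.11 and C4a −0.46 without Case 1 and 3, and C4a −0.56 on the libraries without the mismatch, and without a single mouse C1qa ran from −0.053 (without Case 3) to 0.68 and C4a from −0.070 (without Case 1) to 0.40. In Dapa against Ctrl, C2 became −0.042 and C1qb −0.048 with the term for the mismatched libraries, C1qb −0.0026 in 1 fit of all groups, Cfb 0.0087 on the libraries without the mismatch, and C1qa 0.026 with upper quartile scaling, 0.0085 with at least 10 counts in every sample, 0.057 with limma on log2(FPKM + 1) and 0.062 on log2(FPKM + 0.1). Without a single mouse, C2 ran from −0.060 to 0.15, C1qa from −0.19 to 0.099 and C1qb from −0.15 to 0.14 there.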
